A study of Mus musculus with 12 samples.

Results

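The genes described here are 9 steroid receptors and estrogen receptor cofactors, namely the estrogen receptors Esr1 and Esr2, the progesterone receptor gene Pgr, the glucocorticoid receptor gene Nr3c1, the membrane estrogen receptor gene Gper1, the cofactor gene Greb1 and the coactivator genes Ncoa1, Ncoa2 and Ncoa3. They were taken by symbol, and each had exactly 1 probe set carrying that single symbol, so the 9 genes are 9 of the 21789 probe sets with a single symbol and of 35556 probe sets in all. They were measured on Affymetrix Mouse Gene 1.0 ST arrays, as log2 RMA signals, in the epithelial and the stromal layer of a primary co-culture of CD-1 mouse uterine cells. The cells had been taken by enzymatic digestion on day 4 of pseudopregnancy, the epithelial sheets being grown on matrigel-coated inserts and the stromal cells on cover slips, before the layers were combined as a co-culture. Both layers of every group spent a night in medium with charcoal-stripped serum, which holds little steroid, and were then treated for 2 days. The 4 groups of 3 arrays were epithelial vehicle and stromal vehicle (0.01% ethanol), and epithelial E2 and stromal E2 (10 nM estradiol). The layers were harvested separately. Nothing in the labels states that a group's arrays stem from different animals or cultures, so every p-value reflects the spread among these samples alone, which may be technical.

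Estrogen receptors are ligand-activated transcription factors. Bound by estradiol they attach to estrogen response elements in DNA, directly or through other factors, and recruit coactivators of the p160 family, encoded by Ncoa1, Ncoa2 and Ncoa3, which in turn bring in histone acetyltransferases. Esr1 is the main estrogen receptor of the uterus, in epithelium and stroma alike, and Pgr and Greb1 are among its best known target genes. Progesterone receptor made under estrogen lets the uterus respond to progesterone, and the stroma and the epithelium exchange signals in both responses.

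Values after ± are the standard deviation over n = 3 arrays where they follow a group mean, and the standard error from limma where they follow a log2 difference. Bracketed ranges are 95% confidence intervals. An adjusted p is from limma with Benjamini-Hochberg adjustment over all 23410 probe sets with a gene symbol, and a difference passed where it was under 0.05. Folds are ratios of the deposited signals. Whether a signal lay above the background of its probes was not tested, and the levels of different genes are not compared, since probe sets differ in brightness.

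The 4 groups were checked against cell type markers. The mean of 17 epithelial markers was 10.52, 11.09 and 9.59 in the epithelial vehicle arrays (replicates 1, 2 and 3), 9.45, 9.63 and 9.74 in the epithelial E2 arrays, and 6.98 to 7.31 in the 6 stromal arrays, and 16 of the 17 passed as higher in epithelium under vehicle. The mean of 16 stromal markers was nearly as high in the epithelial arrays (9.96 to 10.74 under vehicle and 10.65 to 10.70 under E2) as in the stromal ones (10.66 to 11.01). Pdgfra, a receptor that defines fibroblasts, measured 10.46, 9.82 and 11.76 in epithelial vehicle, 11.77, 11.94 and 11.71 in epithelial E2 and 11.62 to 12.27 in stroma. The epithelial layer therefore held strong signal of stromal genes, and more of it in vehicle replicate 3 and the E2 arrays than in vehicle replicates 1 and 2. In bulk samples such as these, fewer cells of a type and less RNA per cell cannot be told apart. The mean of 16 leukocyte markers ran from 8.10 to 8.29 in epithelial vehicle, 8.20 to 8.81 in epithelial E2, 9.20 to 9.26 in stromal vehicle and 8.83 to 8.99 in stromal E2. The mean of 6 mesothelial markers was 9.03 ± 0.25 in epithelial vehicle and 8.60 ± 0.16 in epithelial E2, against 6.40 ± 0.10 and 6.41 ± 0.11 in stroma. All 6 passed as higher in epithelium under vehicle, and 2 of them were lower with E2 in epithelium. Of 10 smooth muscle markers, 7 were lower in epithelium under vehicle and 8 under E2. The mean of 10 endothelial markers was near level in all groups (7.77 to 7.92), but single markers passed. Between the layers 2 were higher and 2 lower in epithelium under vehicle, and 1 and 2 under E2. With E2, 1 endothelial marker rose in epithelium and 2 fell in stroma.

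The promoters of the 3 genes whose epithelial values passed under E2 are shown because these genes carry the E2 results. Windows of 250 bases ending just before each start site, from RefSeq on GRCm38.p6, were at hand for 6 of the 9 genes (8 windows), and are given 5′ to 3′ on the strand of the gene. Capitals mark the half-site GGTCA (on either strand, so also TGACC) and the GC box GGGCGG, the motif bound by Sp1. The Pgr window is chr9:8899583-8899832 on the plus strand, the Greb1 windows are chr12:16800887-16801136 and chr12:16757240-16757489 on the minus strand, and the Gper1 window is chr5:139422929-139423178 on the plus strand.
Pgr: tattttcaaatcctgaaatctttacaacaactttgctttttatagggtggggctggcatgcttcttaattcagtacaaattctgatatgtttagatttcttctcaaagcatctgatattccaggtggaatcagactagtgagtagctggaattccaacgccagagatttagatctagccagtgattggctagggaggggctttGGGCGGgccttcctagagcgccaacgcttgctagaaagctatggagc
Greb1, first start site: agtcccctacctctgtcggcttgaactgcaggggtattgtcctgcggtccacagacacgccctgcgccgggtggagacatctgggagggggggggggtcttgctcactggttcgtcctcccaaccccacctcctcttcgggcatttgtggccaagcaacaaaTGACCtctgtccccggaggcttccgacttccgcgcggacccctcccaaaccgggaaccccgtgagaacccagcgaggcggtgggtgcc
Greb1, second start site: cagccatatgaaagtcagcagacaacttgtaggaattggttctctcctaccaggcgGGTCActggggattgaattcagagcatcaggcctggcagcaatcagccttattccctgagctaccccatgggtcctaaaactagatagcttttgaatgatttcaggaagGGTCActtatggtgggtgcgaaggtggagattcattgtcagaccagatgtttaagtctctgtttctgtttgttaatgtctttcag
Gper1: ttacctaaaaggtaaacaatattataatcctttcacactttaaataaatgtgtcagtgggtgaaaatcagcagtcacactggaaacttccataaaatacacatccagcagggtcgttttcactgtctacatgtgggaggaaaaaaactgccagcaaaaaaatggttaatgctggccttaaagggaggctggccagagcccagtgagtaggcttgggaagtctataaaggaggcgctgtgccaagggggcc
Both Greb1 windows held the half-site, once at bases -88 to -84 from the first start site, and 2 times from the second, at -194 to -190 and -85 to -81. The Pgr and Gper1 windows held 0, while the window of Esr2, a gene that did not pass in any comparison, also held 2, at -238 to -234 and -75 to -71. The half-site is common, standing in 35.2% of 32851 mouse promoter windows of the same length. The Pgr window held 1 GC box at -47 to -42, a motif found in 32.7% of all windows, and the Ncoa1 window held 7. The palindromic element GGTCANNNTGACC was in 0 of the 8 windows and in 0.0639% of all windows, and the AP-1 site TGANTCA was likewise in 0 of the 8 and in 6.75% of all. A match is a description of letters and does not show binding.

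Under E2 the epithelial layer showed a rise of Pgr and Greb1 and a fall of Gper1, and the other 6 genes did not pass. That is 3 of 9 genes, where 2.9% of all probe sets tested passed in this comparison (1.77% rose and 1.12% fell). In stroma Greb1 alone passed, as a rise, so 1 of 9 where 3.5% of all probe sets passed (1.52% rose and 1.98% fell). The E2 effect differed between the layers for Pgr alone, 1 of 9 where 0.91% passed. By sign, the epithelial difference was above the stromal one for 0.641% and below it for 0.269%, whichever effect was larger in size. Between the layers, 5 of the 9 passed under vehicle, 1 as higher and 4 as lower in epithelium, where 21.4% of all probe sets passed (7.27% and 14.1%). Under E2 1 passed, as lower in epithelium, where 13.6% did (4.43% higher and 9.18% lower). The 9 genes were chosen with earlier results of these data known, so these shares are a description.

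**Figure D1:**
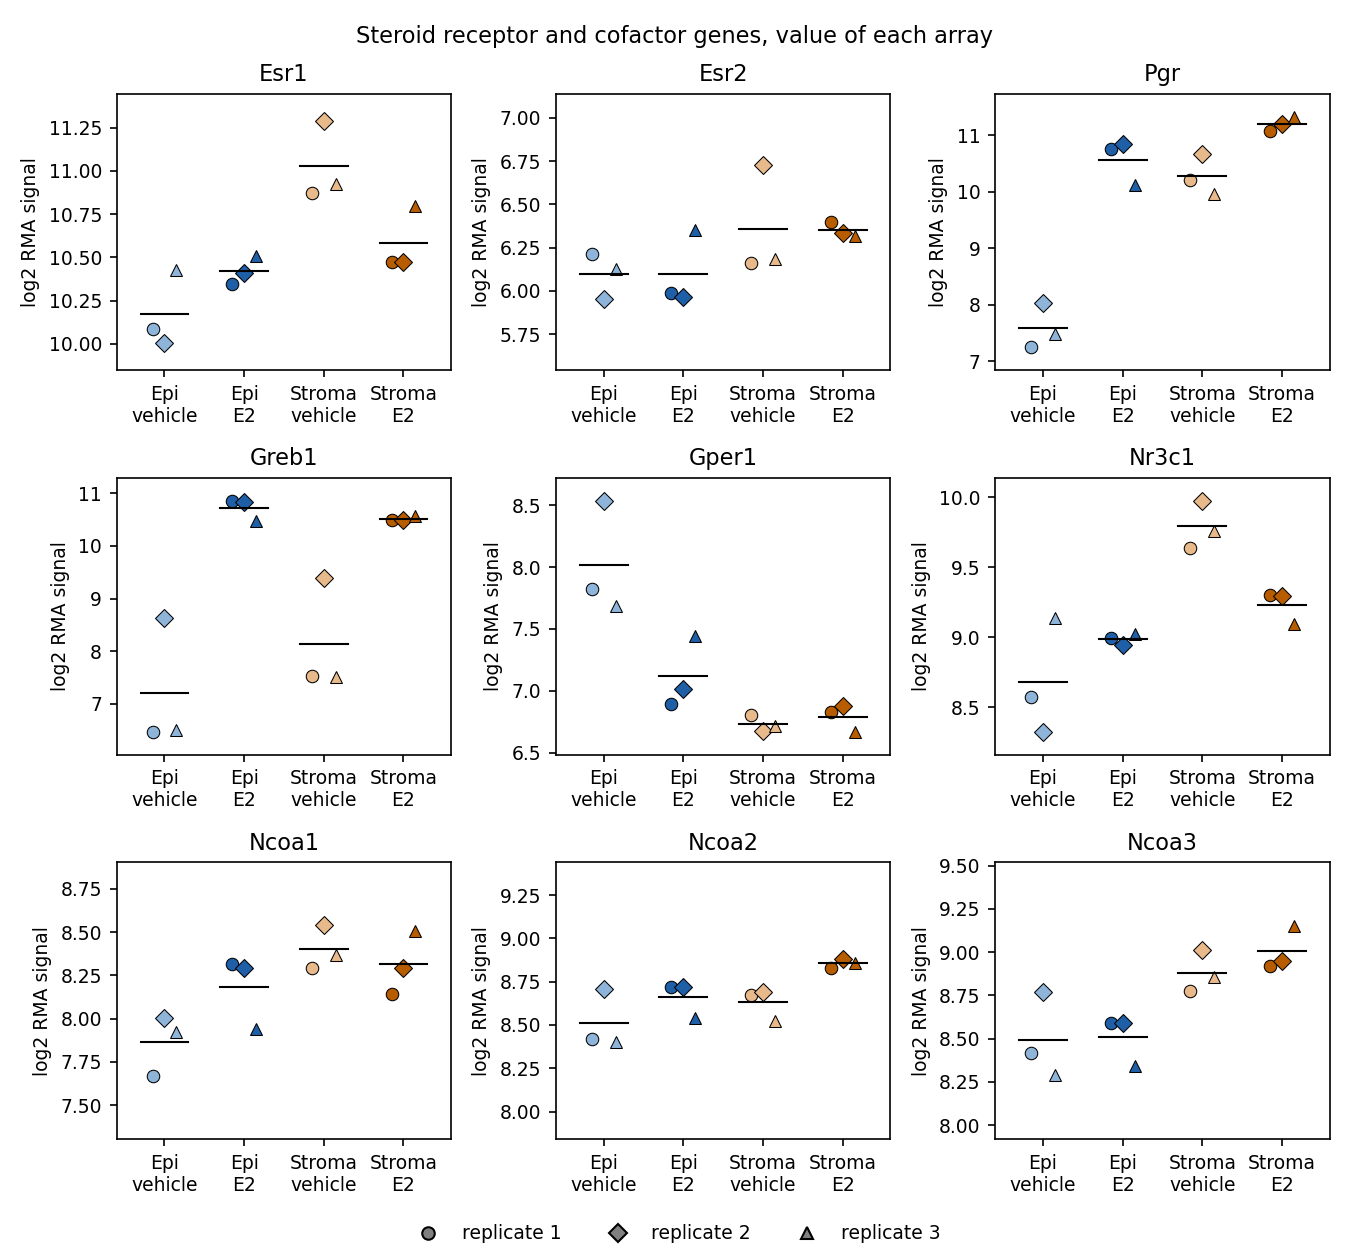
Log2 RMA signal (y axis) of each of the 9 genes in each of the 12 arrays, by layer and treatment (x axis), with symbols for the replicate number and bars for the group mean (the y range differs between genes). In each layer Pgr and Greb1 stand higher in the E2 arrays than in the vehicle arrays, Gper1 is highest in the epithelial vehicle arrays, and vehicle replicate 2 stands above the other vehicle arrays for Greb1 in both layers.

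Esr1 was brightest in stromal vehicle. It measured 10.87, 11.29 and 10.93 there, 10.48, 10.47 and 10.80 in stromal E2, 10.34, 10.41 and 10.51 in epithelial E2 and 10.08, 10.01 and 10.42 in epithelial vehicle. All 3 stromal vehicle arrays were above all other arrays, while neighbouring groups below them overlapped. Under vehicle Esr1 was 1.81-fold lower in epithelium than in stroma (-0.86 ± 0.14 [-1.17, -0.54], adjusted p = 0.00165), and it stayed past the threshold in all 17 alternatives run for that comparison. Under E2 the layers were -0.16 ± 0.14 [-0.48, 0.16] apart and did not pass (adjusted p = 0.506). The E2 difference was 0.25 ± 0.14 in epithelium (adjusted p = 0.456) and -0.45 ± 0.14 in stroma (adjusted p = 0.152), where the groups did not overlap. The difference between those effects, 0.70 ± 0.20 [0.25, 1.14], did not pass (adjusted p = 0.177). Without epithelial vehicle replicate 3, the array with epithelial markers as low and stromal markers as high as the E2 arrays, it was 0.82 ± 0.19 and passed (adjusted p = 0.0485). With array weights it passed too (adjusted p = 0.00916), as did the stromal difference (adjusted p = 0.00256). The difference between the effects passed in only these 2 of 21 alternatives, with an adjusted p of up to 0.416. The stromal difference passed in 1 of 16, with an adjusted p of up to 0.491.

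Esr2, the second nuclear estrogen receptor, lay between 5.95 and 6.73 in all 12 arrays, below the array medians of 7.38 to 7.43. Its group means were 6.10 ± 0.13 under vehicle and 6.10 ± 0.22 under E2 in epithelium, and 6.36 ± 0.32 and 6.35 ± 0.04 in stroma. All neighbouring groups overlapped, and no comparison passed. The E2 difference was 0.00 ± 0.16 [-0.34, 0.34] in epithelium and -0.01 ± 0.16 [-0.35, 0.33] in stroma. Changes of a size within those intervals remain possible, and the smallest change that would have passed was not worked out.

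Pgr had the smallest p of the 9 genes in the epithelial response to E2, the 12th smallest of all probe sets tested. It measured 7.25, 8.03 and 7.49 in epithelial vehicle and 10.75, 10.85 and 10.12 in epithelial E2. In stroma it measured 10.21, 10.67 and 9.96 under vehicle and 11.08, 11.20 and 11.33 under E2. The stromal layer thus had high Pgr without added estradiol, the epithelial layer had low Pgr without it, and the epithelial E2 arrays overlapped the stromal vehicle arrays. The rise in epithelium was 7.89-fold (2.98 ± 0.24 [2.45, 3.51], adjusted p = 0.000138) and stayed past the threshold in all 16 alternatives, between 2.81 and 3.45. In stroma Pgr was 1.89-fold higher with E2 with no overlap of the groups, but the difference of 0.92 ± 0.24 [0.39, 1.45] did not pass (adjusted p = 0.0700). It passed in 7 of the 16 alternatives, including without stromal vehicle replicate 2 (1.11 ± 0.25, adjusted p = 0.0461). The epithelial effect exceeded the stromal one by 2.06 ± 0.34 [1.31, 2.82] (adjusted p = 0.0186). That difference lost its call in 5 of 21 alternatives, namely without E2 replicate 1 or 2 of either layer, where the adjusted p was 0.0613 to 0.0645, and with epithelial E2 replicates 1 and 2 averaged (0.0642).

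The layers differed in Pgr by 6.46-fold under vehicle, epithelium being lower (-2.69 ± 0.24 [-3.23, -2.16], adjusted p = 3.48e-05). Under E2 epithelium was still below stroma in every array, but the difference of -0.63 ± 0.24 [-1.16, -0.10] did not pass (adjusted p = 0.121). Without both vehicle arrays numbered 2, which changes only the shared spread here, that adjusted p was 0.0387.

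Beside the epithelial rise of Pgr, the epithelial marker mean was 10.40 ± 0.76 under vehicle and 9.61 ± 0.15 under E2, and the stromal marker mean 10.29 ± 0.40 and 10.68 ± 0.02. Epithelial vehicle replicate 3 had marker means of 9.59 (epithelial) and 10.74 (stromal), in the range of the E2 arrays or next to it, and a Pgr value of 7.49. Its Greb1 value was 6.51 and its Gper1 value 7.68, so for these 3 genes the array stood with the other vehicle arrays. Its Esr1 (10.42) and Nr3c1 (9.14) values stood within or above the range of the E2 arrays. These are values of a single array, and the part of cell makeup in the differences was not tested.

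Nr3c1, which encodes the glucocorticoid receptor, followed the order of Esr1. It measured 9.64, 9.97 and 9.76 in stromal vehicle and 9.30, 9.30 and 9.09 in stromal E2. The epithelial arrays measured 8.57, 8.32 and 9.14 under vehicle and 8.99, 8.95 and 9.02 under E2. Stromal vehicle was above every other array, stromal E2 above epithelial E2, and the epithelial groups overlapped through vehicle replicate 3. Under vehicle Nr3c1 was 2.16-fold lower in epithelium (-1.11 ± 0.17 [-1.49, -0.73], adjusted p = 0.00103), and it passed in all 17 alternatives. Under E2 the layers were -0.24 ± 0.17 [-0.62, 0.14] apart (adjusted p = 0.395). The E2 differences of 0.31 ± 0.17 in epithelium (adjusted p = 0.434) and -0.56 ± 0.17 in stroma (adjusted p = 0.131) did not pass, nor did the difference between them (0.87 ± 0.25, adjusted p = 0.158). Without epithelial vehicle replicate 3 the epithelial difference was 0.54 ± 0.12 (adjusted p = 0.0266) and the difference between the layers' effects 1.10 ± 0.17 (adjusted p = 0.00696). With array weights the latter was 0.69 ± 0.16 (adjusted p = 0.0105). For Nr3c1 the difference between the effects passed in only 2 of 21 alternatives, and the epithelial difference in 1 of 16. The stromal difference passed in 2 of 16 alternatives, array weights (adjusted p = 0.00354) and the 6 stromal arrays alone (0.0134).

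Gper1, a G protein-coupled receptor of the membrane that binds estrogens, was the only one of the 9 genes with a higher mean in epithelium than in stroma under vehicle. It measured 7.83, 8.54 and 7.68 in epithelial vehicle, 6.90, 7.01 and 7.44 in epithelial E2, 6.80, 6.68 and 6.72 in stromal vehicle and 6.83, 6.87 and 6.67 in stromal E2. The epithelial vehicle arrays stood above all others, the epithelial E2 arrays above all stromal ones, and the stromal groups overlapped. Under vehicle Gper1 was 2.44-fold higher in epithelium (1.28 ± 0.20 [0.84, 1.73], adjusted p = 0.00108), past the threshold in all 17 alternatives. With E2 it fell 1.86-fold in epithelium (-0.90 ± 0.20 [-1.34, -0.46], adjusted p = 0.0377). This fall was past the threshold in 8 of 16 alternatives. The call was lost without epithelial vehicle replicate 1, epithelial E2 replicate 1 or epithelial E2 replicate 2, and on the 6 epithelial arrays alone (adjusted p = 0.295), while the difference stayed between -1.06 and -0.64. In stroma the E2 difference was 0.06 ± 0.20 [-0.38, 0.50] (adjusted p = 0.966), and the difference between the effects, -0.96 ± 0.28, did not pass (adjusted p = 0.185). Epithelial markers, which measured lower with E2 in the same arrays (median difference -0.75 over 17, 2 of them past the threshold), had the same direction, as did mesothelial markers (median difference -0.31 over 6). The part of the marker shift in the fall of Gper1 was not tested.

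**Figure D2:**
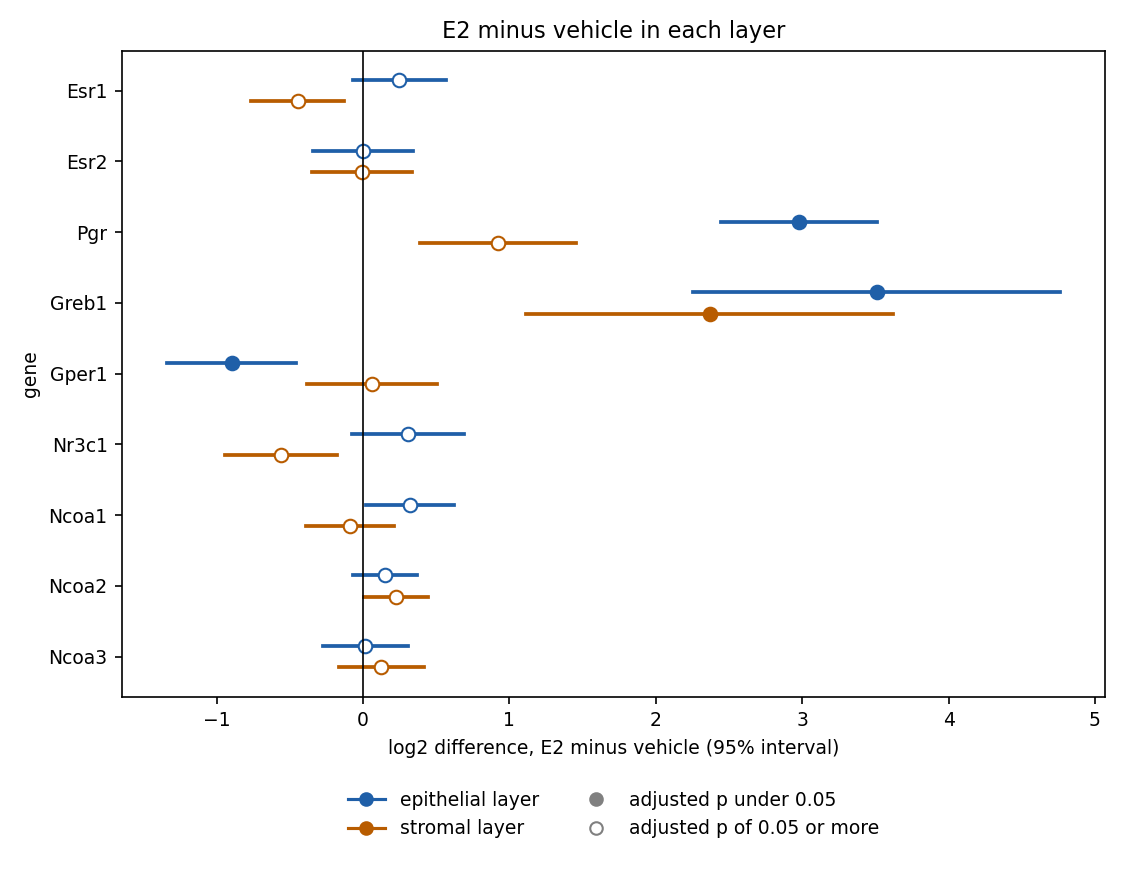
Log2 difference of E2 minus vehicle (x axis) for each gene (y axis) in the epithelial and the stromal layer, with 95% confidence intervals from limma. Filled points have an adjusted p under 0.05. Pgr (2.98) and Greb1 (3.51) lie farthest to the right in epithelium, Greb1 (2.37) in stroma, and Gper1 (-0.90) is the filled point to the left of 0.

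Greb1, whose protein binds the estrogen receptor and stabilises its complex with coactivators, had the largest E2 differences of the 9 genes in both layers. It measured 6.47, 8.63 and 6.51 in epithelial vehicle and 10.85, 10.82 and 10.46 in epithelial E2. In stroma it measured 7.53, 9.38 and 7.52 under vehicle and 10.48, 10.49 and 10.57 under E2. Every E2 array was above every vehicle array, the layers overlapped under E2, and vehicle replicate 2 stood far above the other 2 vehicle arrays in both layers. The rise was 11.4-fold in epithelium (3.51 ± 0.57 [2.25, 4.76], adjusted p = 0.00813) and 5.17-fold in stroma (2.37 ± 0.57 [1.12, 3.62], adjusted p = 0.0457). The epithelial call was lost in 1 of 16 alternatives, the 6 epithelial arrays alone (adjusted p = 0.0734). The stromal call was lost in 7 of 16, among them without stromal vehicle replicate 1 or 3 (0.186 and 0.189) and without any 1 of the 3 stromal E2 arrays (0.135 to 0.144). Without both vehicle arrays numbered 2 the differences were 4.22 ± 0.12 in epithelium (adjusted p = 2.57e-07) and 2.99 ± 0.12 in stroma (adjusted p = 2.11e-06). These arrays were left out after their Greb1 values had been seen, so the smaller errors describe the remaining arrays alone.

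The difference between the layers in the Greb1 effect was 1.14 ± 0.81 [-0.63, 2.91] (adjusted p = 0.793), and 1.23 ± 0.16 without both vehicle arrays numbered 2 (adjusted p = 0.00950). Under vehicle the layers were -0.94 ± 0.57 apart and did not pass (adjusted p = 0.276). With the replicate number as a block in the vehicle arrays, the same difference was -0.94 ± 0.12 (adjusted p = 0.000576), each epithelial vehicle array lying below the stromal array of its number. This block was added after the data had been seen, and the labels do not state that arrays of the same number belong together. Without epithelial vehicle replicate 2 the difference was -1.65 ± 0.44 (adjusted p = 0.0184). The vehicle difference passed in only 4 of 17 alternatives. It ranged from -1.65 to -0.32 over them, with an adjusted p of up to 0.748, so the call depended on the setting. Under E2 the layers were 0.20 ± 0.57 [-1.05, 1.45] apart (adjusted p = 0.854).

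The p160 coactivator genes showed small differences in all comparisons. Ncoa1 (SRC-1) measured 7.67, 8.01 and 7.92 in epithelial vehicle, 8.32, 8.29 and 7.94 in epithelial E2, 8.29, 8.54 and 8.37 in stromal vehicle and 8.14, 8.29 and 8.50 in stromal E2. Only the epithelial vehicle arrays stood apart from the stromal vehicle arrays, being 1.45-fold lower (-0.54 ± 0.14 [-0.84, -0.23], adjusted p = 0.0168). That call was lost without epithelial vehicle replicate 1 (adjusted p = 0.0685) or stromal vehicle replicate 2 (0.0729). The E2 differences of Ncoa1 were 0.32 ± 0.14 in epithelium (adjusted p = 0.276) and -0.09 ± 0.14 in stroma (adjusted p = 0.926).

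Ncoa2 (SRC-2, also GRIP1) had group means of 8.51 ± 0.17 in epithelial vehicle, 8.66 ± 0.10 in epithelial E2, 8.63 ± 0.09 in stromal vehicle and 8.86 ± 0.03 in stromal E2. It passed in no comparison, although its stromal E2 arrays (8.83, 8.88 and 8.86) were above all stromal vehicle arrays (8.68, 8.69 and 8.52), a difference of 0.23 ± 0.10 [0.01, 0.45] (adjusted p = 0.373). The other intervals of its treatment and layer differences lay between -0.42 and 0.37.

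Ncoa3 (SRC-3, also AIB1) was the only one of the 9 genes to pass between the layers under E2. It measured 8.42, 8.77 and 8.29 in epithelial vehicle, 8.59, 8.59 and 8.34 in epithelial E2, 8.77, 9.01 and 8.86 in stromal vehicle and 8.92, 8.95 and 9.15 in stromal E2. All 6 stromal arrays were above all 6 epithelial arrays, stromal vehicle replicate 1 (8.774) lying next to epithelial vehicle replicate 2 (8.770), and the treatments overlapped in each layer. Under E2 epithelium was 1.41-fold lower (-0.50 ± 0.13 [-0.79, -0.21], adjusted p = 0.0281), a call lost without epithelial E2 replicate 2 or 3 or any 1 of the stromal E2 arrays (adjusted p 0.0505 to 0.115). Under vehicle the difference was -0.39 ± 0.13 (adjusted p = 0.0585), and 0.0300 with the replicate number as a block. With E2, Ncoa3 measured 0.02 ± 0.13 [-0.27, 0.31] higher in epithelium and 0.13 ± 0.13 [-0.16, 0.42] higher in stroma, neither passing.

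**Figure D3:**
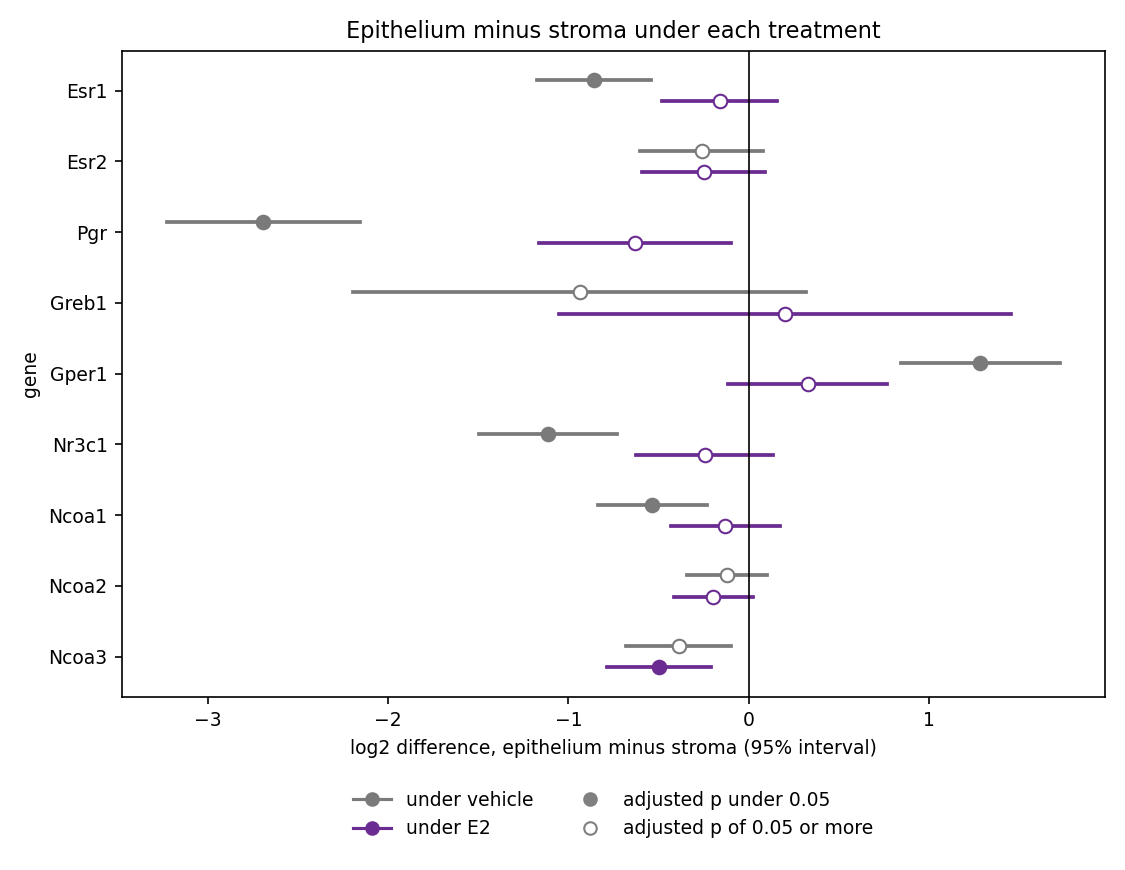
Log2 difference of epithelium minus stroma (x axis) for each gene (y axis) under vehicle and under E2, with 95% confidence intervals from limma and filled points for an adjusted p under 0.05. Pgr moves from -2.69 under vehicle to -0.63 under E2, and Gper1 from 1.28 to 0.33.

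Set side by side, 8 of the 9 genes (88.9%) had higher means in stroma than in epithelium under vehicle and 7 (77.8%) under E2, against 46.3% and 46.2% of all probe sets. The gap between the layers was smaller under E2 for 7 of the 9 genes (77.8%), Ncoa2 and Ncoa3 being the exceptions, against 57% of all 23410 probe sets. Esr1, Pgr, Nr3c1, Ncoa1, Ncoa3 and Gper1 had groups that did not overlap between the layers under vehicle, 6 of 9 where 36% of all probe sets did, and under E2 it was 5 of 9 against 38.9%. These shares rest on 9 genes chosen with earlier results of these data known, and are a description alone. In the E2 comparisons 3 of 9 did not overlap in epithelium (15% of all probe sets) and 5 of 9 in stroma (30.5%), the latter being Pgr, Greb1 and Ncoa2 upward and Esr1 and Nr3c1 downward. Epithelial markers had a median layer difference of 3.99 under vehicle and 2.08 under E2, so the layers lay closer in these markers under E2. Stromal (-0.44 and -0.06), leukocyte (-1.38 and -0.35) and mesothelial markers (2.74 and 2.45) lay closer too. Smooth muscle markers lay farther apart (-0.41 and -0.62), and the endothelial medians were -0.04 and -0.01. The part of cell makeup in the gaps of the 9 genes was not tested.

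The arrays numbered 2 among the vehicle samples stood high for Greb1 in both layers. In epithelium replicate 2 exceeded the mean of replicates 1 and 3 by 2.14, the 26th largest such difference of 23410 probe sets, and in stroma by 1.86, the 12th largest. Replicates 1 and 3 differed by -0.03 and 0.01, so the other vehicle arrays were level. Differences above 1 were found in 2.7% of all probe sets in epithelium and 0.38% in stroma. Pgr was 0.67 higher in epithelial and 0.58 higher in stromal replicate 2, and Gper1 was 0.78 higher in epithelium, where replicate 2 also had the highest epithelial marker mean (11.09), and -0.08 apart in stroma. Of the 9 genes, 6 (66.7%) were above both other vehicle arrays in epithelium and 8 (88.9%) in stroma, against 32.8% and 31.3% of all probe sets. Of 19 other uterine estrogen-responsive genes, 11 (57.9%) and 8 (42.1%) were. Those genes lay on both sides, and 3 chosen after their values were seen show it. Oxtr, the oxytocin receptor gene, was 1.02 higher in stromal and -0.10 apart in epithelial replicate 2, Lif, a cytokine gene of implantation, was -1.35 apart in stroma and 0.53 in epithelium, and Cebpb, a transcription factor gene, was -1.38 apart in epithelium and 0.06 in stroma. What set these arrays apart was not tested.

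**Figure D4:**
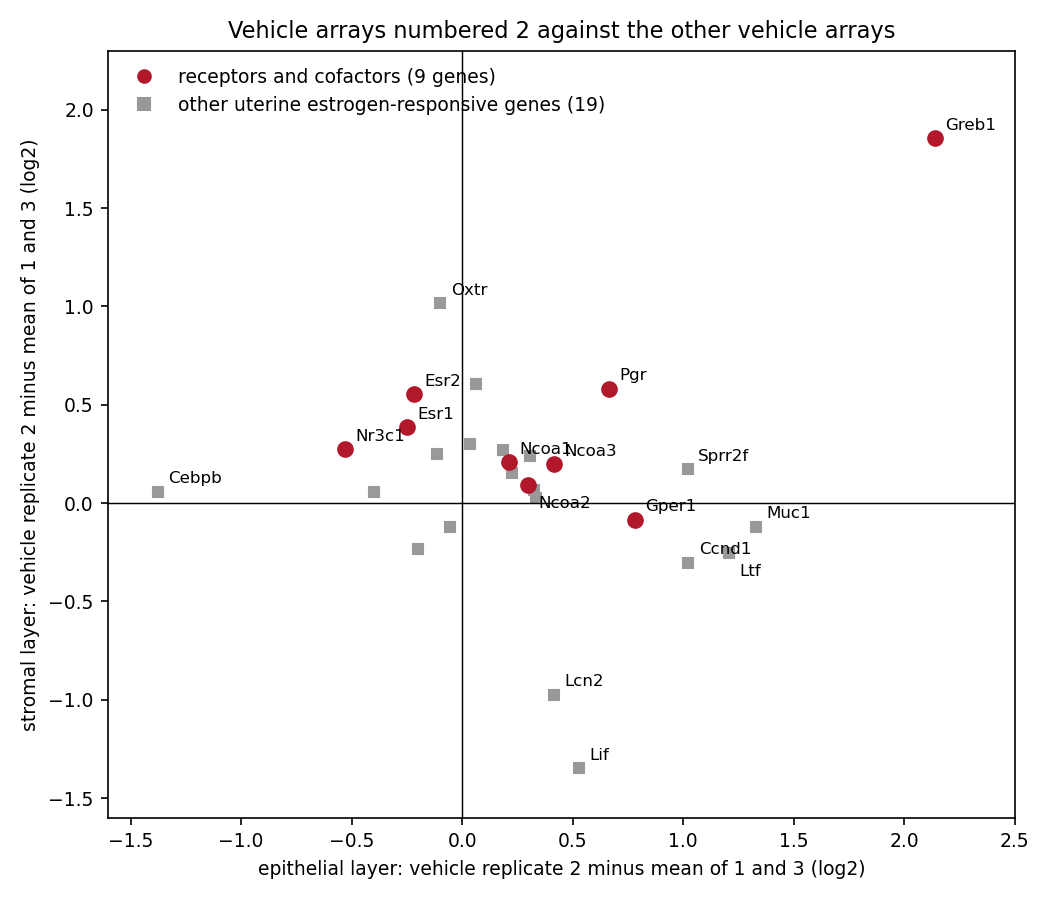
Value of vehicle replicate 2 minus the mean of vehicle replicates 1 and 3 (log2), in epithelium (x axis) and stroma (y axis), for the 9 genes and 19 other uterine estrogen-responsive genes. Greb1, at 2.14 and 1.86, lies apart at the upper right, and Pgr, at 0.67 and 0.58, is the next of the 9 genes above 0 in both layers.

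The rest of the pathway was described with 8 lists of 113 genes, of which 103 had a probe set with a single symbol. The lists were written with earlier results of these data known, so their shares beside those of all probe sets are a description. With E2 in epithelium 9 of the 103 rose and 2 fell (10.7%, where 2.9% of all probe sets passed), and in stroma 5 rose and 8 fell (12.6%, where 3.5% passed). The receptors, coactivators, corepressors and chaperones held few of them. Among 15 other nuclear and membrane steroid receptors and related genes 0 passed in epithelium (median difference 0.01, against 0.03 over all probe sets) and 1 in stroma (median 0.05, against 0.03). That gene was Rarb, a retinoic acid receptor, at 8.15, 10.07 and 7.97 in stromal vehicle and 11.05, 11.09 and 10.65 in stromal E2. It rose 4.60-fold in stroma (2.20 ± 0.45, adjusted p = 0.0202), and vehicle replicate 2 again lay between the other vehicle arrays and the E2 arrays. In epithelium Rarb also measured higher with E2 (9.08 ± 0.33, against 7.30 ± 0.40 under vehicle), without passing. None of the 19 other coactivators passed in either layer (medians 0.05 and -0.04). Of 13 corepressors 0 passed in epithelium (median 0.00), and in stroma (median -0.01) Tbl1xr1, a subunit of the NCoR complex, fell by 0.80 ± 0.11 (adjusted p = 0.00187). Of 10 receptor chaperones 0 passed in epithelium (median 0.02), and in stroma (median -0.17) Fkbp5, a co-chaperone of steroid receptors that glucocorticoids and progestins induce, fell by 0.81 ± 0.15 (adjusted p = 0.0133). Both genes also measured lower with E2 in epithelium without passing. The epithelial means (vehicle, then E2) were 8.85 and 8.52 for Tbl1xr1, and 7.37 and 6.97 for Fkbp5.

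Among 10 transcription factors that work beside estrogen receptors, Foxo1 (1.11 ± 0.21, adjusted p = 0.0188) and Gata3 (0.78 ± 0.16, adjusted p = 0.0240) rose in epithelium, and Tfap2c (-0.94 ± 0.14, adjusted p = 0.00406) and Runx1 (-0.67 ± 0.11, adjusted p = 0.00498) fell in stroma. The list medians were 0.07 and -0.10. Foxo1 was also 1.83-fold higher in stroma than in epithelium under vehicle (adjusted p = 0.0125), the direction of the stromal marker shift. Gata3 had a vehicle mean of 6.14 in each layer. The part of the marker shift in these epithelial rises was not tested.

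The 19 other uterine estrogen-responsive genes had 4 rising and 2 falling in epithelium (median 0.14), and 3 rising and 3 falling in stroma (median 0.10). Oxtr measured 7.63, 7.74 and 8.04 in epithelial vehicle and 10.93, 11.07 and 10.74 in epithelial E2, an 8.64-fold rise (3.11 ± 0.25, adjusted p = 0.000138). Its stromal values were high under both treatments, 10.88, 12.14 and 11.36 and then 11.99, 11.96 and 12.20, so its pattern over the groups resembled that of Pgr. The difference between the layers in its E2 effect was 2.52 ± 0.35 (adjusted p = 0.00932), and it was 12.6-fold lower in epithelium under vehicle. Mad2l1, a spindle checkpoint gene, rose in both layers (0.98 ± 0.14 and 0.77 ± 0.14, adjusted p = 0.00489 and 0.0120). Cish, an inhibitor of cytokine signalling, fell in both (-0.71 ± 0.11 each, adjusted p = 0.00581 and 0.00362).

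Igf1, a growth factor made mainly by uterine stroma, rose in epithelium (1.16 ± 0.20, adjusted p = 0.0105) and measured -0.73 in stroma, which did not pass. The difference between the effects was 1.89 ± 0.28 (adjusted p = 0.0111). Its means (vehicle, then E2) were 9.20 and 10.36 in epithelium and 10.29 and 9.56 in stroma. The layer difference under vehicle had the direction of the stromal marker shift in the epithelial E2 arrays, whose part in the rise was not tested. Fos, a part of the AP-1 factor, rose in stroma from 8.32, 8.68 and 8.74 to 9.88, 9.93 and 10.01 (1.36 ± 0.13, adjusted p = 0.000251). Its epithelial effect of 0.43 was smaller by 0.93 ± 0.19 (adjusted p = 0.0499). Lcn2, an iron-binding protein of epithelial secretions, fell in stroma (-1.94 ± 0.41, adjusted p = 0.0231).

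Receptor genes can be set beside the genes their receptors control. Of 14 uterine progesterone-responsive genes 0 passed in epithelium (median -0.04), where Pgr rose 7.89-fold in medium to which no progestin was said to be added, and in stroma (median -0.11) Fkbp5 alone passed, as a fall. Of 9 glucocorticoid-responsive genes, Klf9 (0.73 ± 0.13), Errfi1 (0.72 ± 0.14) and Sgk1 (0.76 ± 0.17) rose in epithelium with adjusted p from 0.0133 to 0.0362 (list median 0.32). In stroma Errfi1 rose (0.65 ± 0.14) and Nfkbia, an NF-kappaB inhibitor, and Fkbp5 fell (-0.97 ± 0.16 and -0.81 ± 0.15), with a list median of 0.02. The effect on Nfkbia was 1.41 ± 0.22 higher in epithelium than in stroma (adjusted p = 0.0146), and of the 103 genes Igf1, Oxtr, Fos and Nfkbia were the 4 whose effects differed between the layers (3.88%, where 0.91% of all probe sets did). Klf9 and Sgk1 were 1.69-fold and 2.66-fold higher in stroma than in epithelium under vehicle, again the direction of the stromal marker shift in the E2 arrays. Errfi1 had vehicle means of 11.56 in stroma and 11.37 in epithelium. The part of the marker shift in these rises was not tested. The 11 epithelial calls over the lists became 1 on the 6 epithelial arrays alone, 7 without vehicle replicate 1, 18 without vehicle replicate 3, 3 without E2 replicate 1 and 4 without E2 replicate 2, 3 with E2 replicates 1 and 2 averaged and 40 with array weights. The 13 stromal calls became 8 without vehicle replicate 1, 7 without vehicle replicate 3, 6 without E2 replicate 1, 7 without E2 replicate 2 and 31 with array weights. The 4 differences between the effects became 9 without epithelial vehicle replicate 3, 2 without stromal E2 replicate 1 or 2, and 29 with array weights.

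**Figure D5:**
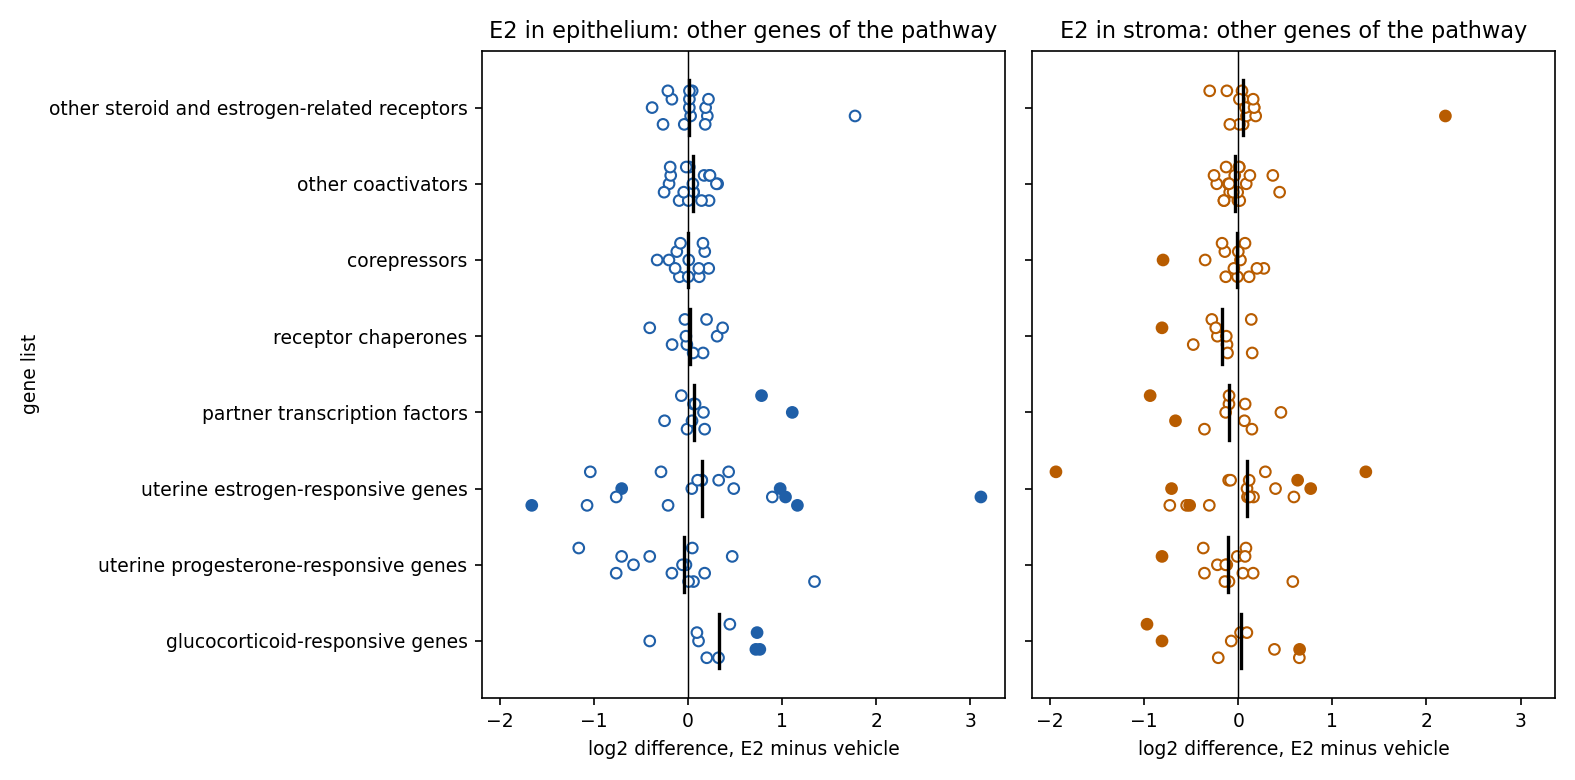
Log2 difference of E2 minus vehicle (x axis) for the genes of the 8 pathway lists (y axis), in epithelium and in stroma, each point being 1 gene, filled where the adjusted p was under 0.05, and each bar the median of a list. Most genes lie near 0, and Oxtr (3.11) in epithelium and Rarb (2.20) in stroma lie farthest to the right among those past the threshold.

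Between the layers 13 of the 103 pathway genes were higher in epithelium and 25 lower under vehicle (36.9%, where 21.4% of all probe sets passed), and 13 and 14 under E2 (26.2%, where 13.6% passed). The 27 calls under E2 were 16 without stromal E2 replicate 2 and 64 with array weights, and the 38 under vehicle were 25 on the 6 vehicle arrays alone. Among the receptors, Vdr, the vitamin D receptor gene, was 2.11-fold and 2.24-fold higher in epithelium, and Rxra, the partner of several nuclear receptors, was lower (log2 differences of -0.64 and -0.58). The coactivators Trim24 (-0.59 and -0.73) and Ncoa7 (-0.59 and -0.46) were lower in epithelium under both treatments. Of the progesterone-responsive genes, the homeobox genes Hoxa10 and Hoxa11, which pattern the uterus and serve its stroma in implantation, were 2.36-fold and 4.03-fold lower in epithelium under vehicle, and 2.26-fold and 2.89-fold lower under E2.

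The genes most like 4 of the 9 in pattern were found by Pearson correlation over the 12 arrays, among 17285 genes, as a description over arrays that share their groups. Arhgap42 came nearest to Pgr (r = 0.99), with means of 10.06 and 11.43 in epithelium (vehicle, then E2) and of 11.38 and 11.90 in stroma, beside 7.59, 10.57, 10.28 and 11.20 for Pgr. In the RefSeq table Arhgap42 is also the protein-coding gene next to Pgr on chromosome 9. Socs2 (0.99), Akr1c14 (0.98) and Stard13 (0.97) followed. Greb1 was most like Bcl9 (0.97), Dcbld2 (0.96), Mad2l1 (0.95) and Ogn (0.93), Gper1 most like Tmem45b (0.99), Kcnq1 (0.99), Defb48 (0.98) and Tbc1d2 (0.98), and Esr1 most like Rgma (0.96), Cnih2 (0.96), Dennd5b (0.95) and Zer1 (0.95). The protein-coding neighbours of Greb1 and Esr1 on either side were not among the 4 most alike, nor was Zfand2a, which lies next to Gper1. The other neighbour of Gper1, C130050O18Rik, could not be among them, since genes with Rik clone names were passed over in the search.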

How the data were processed

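RNA of the epithelial and stromal layers of uterine co-cultures was hybridised to 12 Affymetrix Mouse Gene 1.0 ST arrays. The deposited values are log2 signals from RMA per the submitters' processing notes, with the version and settings not given in the sources used here. They were used as deposited. Gene symbols came from the platform annotation (21789 probe sets with 1 symbol, 1621 with several, 12146 with none). The RefSeq table (GRCm38.p6) held the gene identifiers of 21698 of the former, all 9 described here included.

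The 5 comparisons were two-sided tests in limma 3.58.1 (R 4.3.3, lmFit and eBayes) fitted on all 12 arrays and 4 groups. There were 8 residual degrees of freedom and 3.27 from the prior. Fits were tested on simulated data. The 9 genes and the lists were chosen with earlier results of these data known. Of each list, up to 4 genes with the smallest p past the threshold were named per comparison, and for likeness the 4 most correlated genes.

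Samples were grouped by layer and treatment. Replicate numbers come from the sample titles. The main fits paired no arrays, and the replicate number entered only as a block in alternatives. Residuals of same-numbered arrays correlated at 0.17, 0.14 and 0.13 between the layers under vehicle. The correlations were -0.42, 0.27 and 0.27 between treatments in epithelium and 0.20, -0.04 and 0.03 in stroma. Between the layers under E2 they were -0.31, 0.23 and -0.06. Alternatives tried were 2 further scalings, all 35556 probe sets, a filter on low values, a variance trend, array weights, the replicate block, the 6 arrays of a comparison, leaving out each array, and an average of epithelial E2 replicates 1 and 2, which correlated at 0.997. Leaving out both vehicle arrays numbered 2, and a block within the vehicle arrays, were added after seeing the data.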

Additional observations from a re-analysis of the deposited data

Results flagged for a closer look

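The E2 effect on Pgr differed between the layers by a test of that difference. It was larger in epithelium than in stroma by 2.06 ± 0.34 on the log2 scale (adjusted p = 0.0186 by limma), with all 3 E2 arrays above all 3 vehicle arrays in each layer. Epithelial and stromal means were 2.69 apart under vehicle and 0.63 apart under E2, stroma being higher both times.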

How the results depend on the processing

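Over the 9 genes, 679 differences under an alternative kept their direction and their side of the threshold, 36 passed where they had not, 28 no longer passed and 26 changed sign. The sign changes concern differences near 0 that did not pass. For Esr2 the epithelial E2 difference was -0.033 with quantile scaling, -0.20 with array weights and -0.071 without both vehicle arrays numbered 2. The stromal one was 0.076 and 0.18 under the latter 2, and the difference between the effects -0.27 and -0.25. Array weights gave 0.035 (Ncoa2) and 0.073 (Ncoa3) for the difference between the effects and 0.0097 for Ncoa1 between the layers under E2. Quantile scaling gave 0.012 for Ncoa2 between the layers under vehicle, and averaging epithelial E2 replicates 1 and 2 gave -0.025 for Ncoa3 in epithelium. Leaving out single arrays moved Esr2 between -0.12 and 0.070 in epithelium, -0.11 and 0.18 in stroma, and -0.17 and 0.11 for the difference between the effects. It moved Ncoa3 between -0.086 and 0.15 in epithelium, and the difference between the effects between -0.13 and 0.023 (Ncoa2) and -0.21 and 0.029 (Ncoa3). The cause of these changes was not tested.

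Array weights, which ran from 0.120 to 6.69, moved the counts of calls to 4706 probe sets and 5 of the 9 genes for E2 in epithelium, 4503 and 5 in stroma, 4488 and 6 for the difference between the effects, 9867 probe sets between the layers under vehicle, and 11798 and 5 under E2. On the 6 arrays of a comparison alone the counts were 49 and 1 in epithelium and 2142 and 3 in stroma. With epithelial E2 replicates 1 and 2 averaged they were 219 in epithelium, 91 and 0 for the difference between the effects, and 0 of the 9 genes in stroma. All probe sets of the table gave 128 for the difference between the effects and 0 of the 9 genes in stroma, and quantile scaling 1099 in epithelium. In stroma 2 of the 9 genes passed with the filter on low values, with quantile scaling, with the replicate block and without both vehicle arrays numbered 2. The last setting also gave 2 for the difference between the effects and 2 between the layers under E2. Besides the values given for Greb1 and Ncoa3 between the layers under vehicle, the block for the replicate number in all 12 arrays moved the epithelial fall of Gper1 to an adjusted p of 0.0566 and the stromal difference of Pgr to 0.0321.

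Leaving out single arrays gave 219 to 1634 probe sets and 2 to 4 of the 9 genes for E2 in epithelium, 413 to 664 and 0 to 2 in stroma, 81 to 725 and 0 to 3 for the difference between the effects, 3385 to 7197 and 4 to 7 between the layers under vehicle, and 1953 to 2929 and 0 to 1 under E2. The mean over the probe sets of a gene was not run, since each of the 9 genes has 1. The number of arrays limits the precision.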
